A study of Arabidopsis thaliana with 8 samples.

Results

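The CaCl2 response of wild Arabidopsis thaliana was measured on 4 of the 8 Affymetrix ATH1 arrays of a study of calcicole and calcifuge physiology. The 4 arrays were chosen by their titles. They hold whole plants of a wild ecotype from high soil pH at 12.5 mM and at 1 mM CaCl2, and of a wild ecotype from low soil pH at 12.5 mM and at 1 mM CaCl2, called the high-pH and the low-pH line below. All plants grew in a growth room in sterile sand with a nutrient solution and daily watering. The other 4 arrays hold a laboratory calcicole at 12.5 and 1 mM and a laboratory calcifuge at 12.5 and 1 mM, and are used here only to set the wild response beside them. The labels give no accession name, plant age or soil pH value for any line, and each soil class is 1 line, so that soil class and line cannot be told apart. CaCl2 brings chloride with calcium, and the design does not separate the ions.

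A calcicole grows well on lime-rich soil, whereas a calcifuge avoids it. Calcium is both a structural ion of the plant cell wall and a signal: short rises of calcium in the cytosol are read by calmodulin and calmodulin-like proteins and kinases, and transcription factors of stress, touch and defence respond within minutes. Leaves of stressed plants also make anthocyanins, through a chain of enzymes that ends with the addition of sugars and acyl groups.

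Each line and dose has 1 array, so the response was measured once in each wild line and the 2 lines serve as the replicates of the dose. The p-values given below set the mean of these 2 responses against a spread estimated in limma. That spread joins the gap between the 2 responses (1 residual degree of freedom) with a prior taken from all tested probe sets (7.50 degrees of freedom). The prior thus weighs more than the gap: AT5G62210 changed by 1.37 in each line and still has an SE of 0.24. Values are MAS5 signal intensities, which as deposited share one trimmed mean across arrays, and the median signal of the wild arrays was between 42.3 and 45.3. Across probe sets the high-pH line correlated at 0.948 across doses and the low-pH line at 0.931, against 0.944 for the wild arrays at 12.5 mM and 0.920 for those at 1 mM. RCA, the Rubisco activase of green tissue, had a signal of 4897 to 6387 on the wild arrays, and PYK10, a beta-glucosidase of roots, of 132 to 329. Of 7 root markers 2 are named on the array, and PYK10 was the only 1 that passed the filter on dim probe sets. The presence of root transcripts thus rests on this gene. In whole plants, fewer cells of a type and less RNA per cell cannot be told apart.

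The response shared by the wild lines was mostly a decrease at 12.5 mM. Of 13647 probe sets tested, 151 (1.11%) were at least 2-fold lower at 12.5 mM in both wild lines and 20 (0.147%) at least 2-fold higher in both. Together these 171 were 1.25% of those tested. The change was at least 2-fold in opposite directions for 32 (0.234%). Lower probe sets outnumbered higher ones at each fold looked at: 388 against 155 at 1.5-fold, 38 against 4 at 3-fold and 13 against 2 at 4-fold. With no filter on dim probe sets the counts at 2-fold were 355 lower (68%) and 167 higher. Fold changes are on the log2 scale after a pseudocount of 2.507 was added to each signal, which understates the change of dim genes.

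Most of what each line did was not shared with the other. In the high-pH line 419 probe sets (3.07%) were at least 2-fold lower and 139 (1.02%) at least 2-fold higher. In the low-pH line 470 (3.44%) were at least 2-fold lower and 403 (2.95%) at least 2-fold higher. The probe sets lower in both lines were 36.0% of those lower in the high-pH line and 32.1% of those lower in the low-pH line. For higher probe sets these shares were 14.4% and 4.96%. Over all tested probe sets the changes of the lines correlated at 0.214 (Pearson) and 0.119 (Spearman), as a description across probe sets of 4 arrays.

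In the limma fit with line as a block, 90 probe sets (0.659%) had an adjusted p under 0.05, 81 of them lower at 12.5 mM (0.594%) and 9 higher (0.0659%). Each of the 90 was at least 2-fold changed the same way in both lines. The test favours this outcome, since it uses the mean and the gap of the same 2 changes, and the smallest mean change among the 90 was 1.44 on the log2 scale. An unadjusted p under 0.05 was found for 1166, of which 717 were lower and 449 higher. The fit has 1 residual degree of freedom, and its calls were lost under several other settings: with each array centred on its median, with quantile normalization, with no filter on dim probe sets, or with the spread estimated from all 8 arrays, 0 passed. Without either wild line 0 passed in that 8-array fit, and with an intensity trend in the variance 194 did. In the fit on all 8 arrays the 90 had adjusted p-values of 0.0750 to 0.697, and all 90 had an unadjusted p under 0.05. The verbs rose and fell below refer to the fit on the 4 wild arrays.

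**Figure D1:**
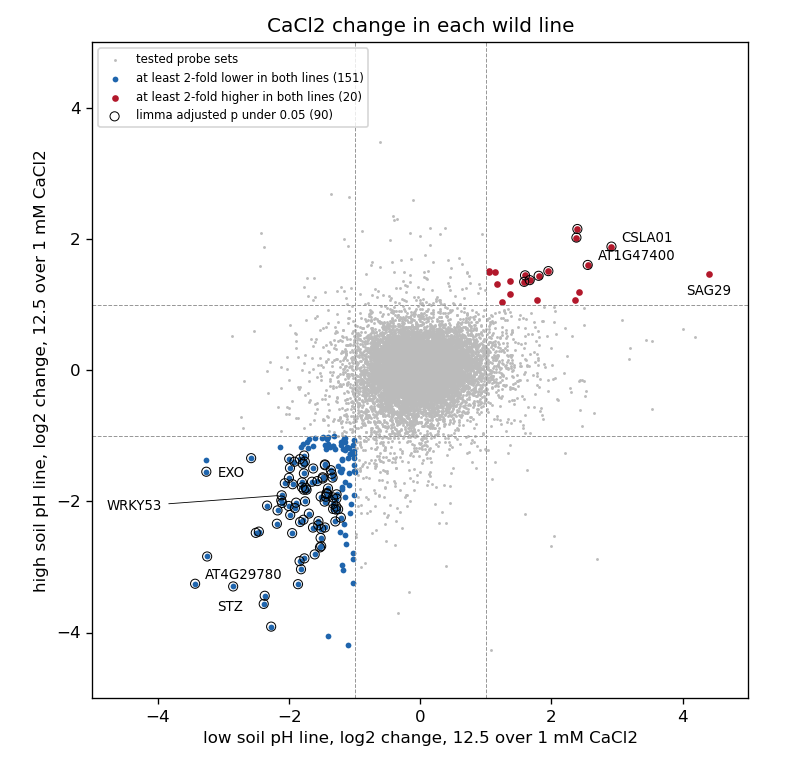
Log2 change (12.5 over 1 mM CaCl2) of each tested probe set in the low soil pH line (x axis) and the high soil pH line (y axis). Blue points are the 151 probe sets at least 2-fold lower in both lines, red points the 20 at least 2-fold higher in both, rings the 90 with a limma adjusted p under 0.05, and dashed lines mark a 2-fold change. The lower left corner holds far more points than the upper right one.

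Several of the genes that fell most are named here only by their locus, and whether they share a pathway was not tested. The 15 named here are those with the largest decrease among probe sets of 1 gene that passed the threshold. AT4G29780 had the largest: its signal was 36.2 at 12.5 mM and 368 at 1 mM in the high-pH line, and 26.2 and 308 in the low-pH line. Both lines thus had a low value at 12.5 mM and a high value at 1 mM, a mean decrease of 10.2-fold (log2 -3.35 ± 0.24 SE, limma adjusted p 0.00514).

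STZ, also known as ZAT10, is a zinc-finger repressor that is itself induced by salt, cold and wounding. Its signal was 29.1 at 12.5 mM and 371 at 1 mM in the high-pH line, and 64.7 and 349 in the low-pH line. It fell 7.87-fold (log2 -2.98 ± 0.31, limma adjusted p 0.0141). The arrays of the doses did not overlap, which the choice of STZ for its decrease on these same arrays favours. STZ is the only member of the touch and wound list that was measured and tested, of 14 listed, so that the list as such was hardly sampled.

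WRKY53, a transcription factor of leaf senescence and of salicylic acid defence, had 19.0 at 12.5 mM and 78.3 at 1 mM in the high-pH line, and 20.2 and 95.8 in the low-pH line. Its changes in the lines were -1.91 and -2.11, nearly equal, and it fell 4.03-fold (log2 -2.01 ± 0.24, limma adjusted p 0.0160). EXO, the EXORDIUM gene that promotes cell expansion and responds to brassinosteroids, behaved less evenly. It had 47.3 at 12.5 mM and 143 at 1 mM in the high-pH line, and 73.5 and 727 in the low-pH line, where the signal at 1 mM was the highest of the 15 genes. It fell by 2.41 ± 0.38 on the log2 scale (limma adjusted p 0.0345), with changes of -1.55 in the high-pH and -3.26 in the low-pH line.

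AT3G10930 and AT5G08240, of no annotated function in the tables used, were close to the floor of the array at 12.5 mM. AT3G10930 had 0.462 at 12.5 mM and 42.1 at 1 mM in the high-pH line, and 6.48 and 40.9 in the low-pH line. The first of these is under the pseudocount of 2.507, so the size of its change (log2 -3.09 ± 0.37) depends on it. AT5G08240 had 5.29 and 74.2 in the high-pH line at 12.5 and 1 mM, and 4.12 and 45.4 in the low-pH line, a change of -3.08 ± 0.25 that depends on the pseudocount too. Of all 81 probe sets that fell, 11 had a signal under 10 at 12.5 mM in a wild line and 1 was under the pseudocount.

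The remaining 9 of the 15 had log2 changes of -2.91 to -1.96. AT4G27280, the brightest of them, had 46.2 at 12.5 mM and 526 at 1 mM in the high-pH line, and 135 and 707 in the low-pH line. ZCF37 had 10.4 at 12.5 mM and 121 at 1 mM in the high-pH line, and 21.4 and 84.7 in the low-pH line. In both genes the decrease was the larger in the high-pH line, at -3.44 against -2.37 and at -3.26 against -1.86. The signals of AT3G04640 were 25.4 and 226 in the high-pH line at 12.5 and 1 mM, and 46.1 and 169 in the low-pH line. Those of AT2G41640 were 3.58 and 40.1, and 33.5 and 108, in the same order. AT2G41640 had a lower signal in the high than in the low-pH line at both doses.

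AT3G57450 and AT1G32920 changed almost alike in both lines. AT3G57450 had 47.6 at 12.5 mM and 229 at 1 mM in the high-pH line, and 101 and 405 in the low-pH line (log2 -2.10 ± 0.24). AT1G32920 had 67.7 and 292 in the high-pH line, and 111 and 456 in the low-pH line (log2 -2.04 ± 0.24). AT5G56980 and AT5G52760 had the larger log2 change in the high-pH line (-2.42 against -1.51, and -2.70 against -1.53), and AT4G27654 in the low-pH line (-1.34 in the high line, -2.58 in the low). AT5G56980 had 10.6 at 12.5 mM and 67.4 at 1 mM in the high-pH line, and 27.6 and 83.2 in the low-pH line.

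**Figure D2:**
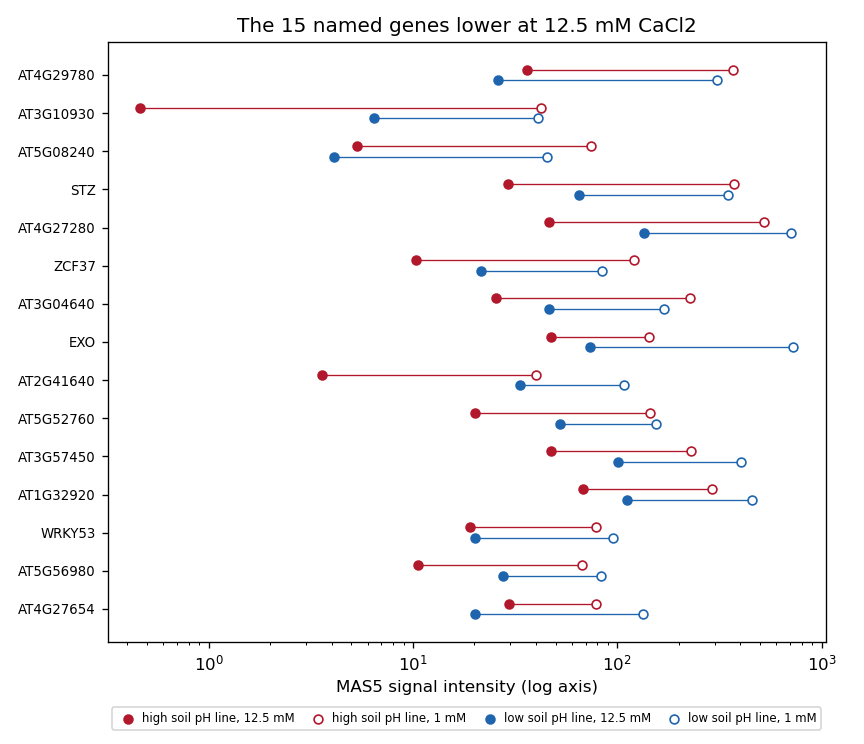
MAS5 signal intensity (log axis) of the 15 named genes that were lower at 12.5 mM CaCl2, with filled points for 12.5 mM and open points for 1 mM, red for the high soil pH line and blue for the low soil pH line. In each gene both filled points lie left of both open points, which the choice of these genes for a decrease on the same arrays favours. AT3G10930 in the high soil pH line, at 0.462, lies under the pseudocount of 2.507.

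The high-pH line had the larger decrease in 11 of the 15 named genes. Over the 81 probe sets that fell, the median change was -2.003 in the high and -1.76 in the low-pH line, and the decrease was larger in the high-pH line in 54 of 81. Among the 3675 tested probe sets below 0 in both lines that share was 43.2%. The 81 were of middling to high signal at 1 mM: their median was 28.5 at 12.5 mM and 145 at 1 mM in the high-pH line, and 52.2 and 183 in the low-pH line. Over all tested probe sets the medians were 94.4 and 95.5 in the high-pH line, and 93.2 and 95.5 in the low-pH line. The decreased set was below the typical signal at 12.5 mM and above it at 1 mM in both lines, which its choice for a decrease on these same arrays favours.

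Among the 20 other genes that fell, 4 have a symbol other than a locus code in the annotation used, and they were chosen for mention after their values were seen. A missing symbol does not mean that a gene has no known function. ORA47, an ethylene response factor of the jasmonate pathway, had 65.1 at 12.5 mM and 182 at 1 mM in the high-pH line, and 69.0 and 193 in the low-pH line. Its change was -1.45 in each line (log2 -1.45 ± 0.24, limma adjusted p 0.0386). CHI, annotated as a putative chitinase, an enzyme that degrades fungal cell walls, had 53.6 and 275 in the high-pH line, and 121 and 302 in the low-pH line (log2 -1.80 ± 0.30). SAL2, a phosphatase gene related to SAL1, had 16.7 and 65.3 in the high-pH line, and 8.97 and 35.6 in the low-pH line (log2 -1.78 ± 0.24). In SAL2 the low-pH line was below the high-pH line at each dose, with a change of similar size. The cytochrome P450 gene CYP71B23 had 64.9 and 290.5, and 91.3 and 221, in the same order of lines and doses (log2 -1.69 ± 0.28).

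The brightest of all genes that fell was AT5G55450, at 473 and 1478 in the high-pH line at 12.5 and 1 mM, and 423 and 1071 in the low-pH line (log2 -1.49 ± 0.25). This gene, too, was singled out after its values were seen. The other 15 genes fell by 1.45 to 1.93 on the log2 scale, among them AT5G52750, which lies next to AT5G52760 on the chromosome. Of 2102 neighbouring gene pairs with both members tested, 3 pairs had both members at least 2-fold lower in both wild lines, and 39 had at least 1 such member. These were AT5G52750 with AT5G52760, AT4G27652 with AT4G27654 and AT1G74440 with AT1G74450.

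A further 30 probe sets of 1 gene were at least 2-fold lower in both wild lines without passing the test. CML23, a calmodulin-like calcium sensor, had 14.2 at 12.5 mM and 60.0 at 1 mM in the high-pH line, and 32.2 and 67.5 in the low-pH line (log2 -1.46 ± 0.28, limma adjusted p 0.0760). TET8, a tetraspanin of membrane vesicles, had 311 and 758 in the high-pH line, and 602 and 1272 in the low-pH line (log2 -1.18 ± 0.24, limma adjusted p 0.0904). ATPMEPCRB, the pectin methylesterase PME41, which alters the pectin that binds calcium in the wall, had 38.1 and 87.7, and 101 and 258, in the same order (log2 -1.24 ± 0.24, limma adjusted p 0.0743). All 3 were lower at 12.5 mM in each line, and all 3 were chosen for mention after their values were seen. So was AT3G22240, the brightest of the 30, with 461 and 2896 in the high-pH line, and 989 and 2166 in the low-pH line (log2 -1.89 ± 0.35, limma adjusted p 0.0681). The defensin gene PDF1.2b, at 4.62 and 12.8 in the high-pH line and 41.7 and 99.9 in the low-pH line, differed by -1.16 ± 0.24 (limma adjusted p 0.0932). Its signals in the high-pH line were dim, and its probe set is of a type that can also bind other transcripts. The defensin gene PDF1.2 had opposite signs, at 0.26 in the high and -1.13 in the low-pH line. Its mean was -0.44 ± 0.34 (limma adjusted p 0.848).

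The genes that rose were few, and 4 with a single gene name passed the threshold. CSLA01, a cellulose synthase-like enzyme of a family that makes the backbone of mannans in the cell wall, had the largest increase among them. Its signal was 218 at 12.5 mM and 57.0 at 1 mM in the high-pH line, and 698 and 90.4 in the low-pH line. It rose 5.28-fold (log2 2.40 ± 0.30, limma adjusted p 0.0174), by 1.89 in the high and 2.92 in the low-pH line.

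AT1G47400, a member of the iron-deficiency list, had 323 at 12.5 mM and 104 at 1 mM in the high-pH line, and 947 and 159 in the low-pH line. It rose 4.23-fold (log2 2.08 ± 0.29, limma adjusted p 0.0238), by 1.61 in the high and 2.55 in the low-pH line. The other 3 tested members of that list, of 24 listed, did not pass: PYE, a regulator of the iron-deficiency response, differed by 0.37 ± 0.25, AT3G13610 by -0.30 ± 0.45 and AT3G12900 by -0.08 ± 0.32. The last 2 had opposite signs in the lines, and the list median was 0.14, against -0.01 over all tested probe sets. AT4G32920 had 80.7 at 12.5 mM and 28.1 at 1 mM in the high-pH line, and 64.4 and 16.6 in the low-pH line, and rose by 1.62 ± 0.25 on the log2 scale (limma adjusted p 0.0312).

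UF3GT, the glycosyltransferase that adds a sugar to anthocyanins, had 437 at 12.5 mM and 159 at 1 mM in the high-pH line, and 567 and 186 in the low-pH line. It rose 2.87-fold (log2 1.52 ± 0.24, limma adjusted p 0.0347), by a similar amount in each line. DFR, the dihydroflavonol reductase of the anthocyanin branch, had 752 and 302 in the high-pH line, and 858 and 379 in the low-pH line. Its difference of 1.24 ± 0.24 did not pass (limma adjusted p 0.0739), nor did that of the anthocyanin malonyltransferase AT5MAT, 1.28 ± 0.25 (limma adjusted p 0.0812). AT5MAT had 79.3 and 26.1 in the high-pH line, and 205 and 98.4 in the low-pH line.

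The other 5 tested members of the anthocyanin and flavonoid list, of 22 listed, were above 0 too, so that all 8 were above 0 in both lines, where 26.4% of all tested probe sets were. The members of this list were chosen with earlier results of these data known, so this share is a description only. AT4G14090 differed by 1.01 ± 0.24, the chalcone isomerase-like gene CHIL by 1.01 ± 0.25, and the flavonoid glucosyltransferase UGT78D2 by 0.51 ± 0.24. AT1G06000 differed by 0.43 ± 0.25 and the flavonol rhamnosyltransferase UGT78D1 by 0.33 ± 0.26. UGT78D1 was close to the floor in the high-pH line, at 4.22 and 3.89 at 12.5 and 1 mM, and had 146 and 95.7 in the low-pH line. The list median was 1.01 (0.84 in the high and 1.09 in the low-pH line), against -0.01 over all tested probe sets, and 1 member passed the test. In the lab lines the same list had medians of 1.49 in the calcicole and 2.43 in the calcifuge, both above those of the wild lines.

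SAG29, the sugar transporter SWEET15 that is strongly expressed in ageing leaves, had the largest mean difference of the higher genes but the least even one. Its signal was 703 at 12.5 mM and 251 at 1 mM in the high-pH line, and 508 and 21.6 in the low-pH line. The changes were 1.47 and 4.40, and the mean of 2.94 ± 0.56 did not pass the threshold (limma adjusted p 0.0687). The lines had similar signals at 12.5 mM and differed at 1 mM.

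The other 8 higher genes were named because both lines had the same direction, and none passed the threshold. MGL, the methionine gamma-lyase that breaks down methionine in stressed tissue and the only tested member of the salt and ion list (of 20), had 556 at 12.5 mM and 294 at 1 mM in the high-pH line, and 403 and 164 in the low-pH line (log2 1.098 ± 0.25, limma adjusted p 0.123). AT5G62210, the most even of them, had 75.5 and 27.8 in the high-pH line, and 104 and 38.9 in the low-pH line (log2 1.37 ± 0.24, limma adjusted p 0.0524). AT5G12110 and AT5G52390 differed by 1.11 ± 0.25 and 1.14 ± 0.25, and AT3G25870 and AT1G75810 by 1.105 ± 0.24 and 1.04 ± 0.25. AT1G66760 differed more in the high-pH line (2.07 against 0.94) and AT3G05400 more in the low-pH line (0.90 in the high line, 2.06 in the low).

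**Figure D3:**
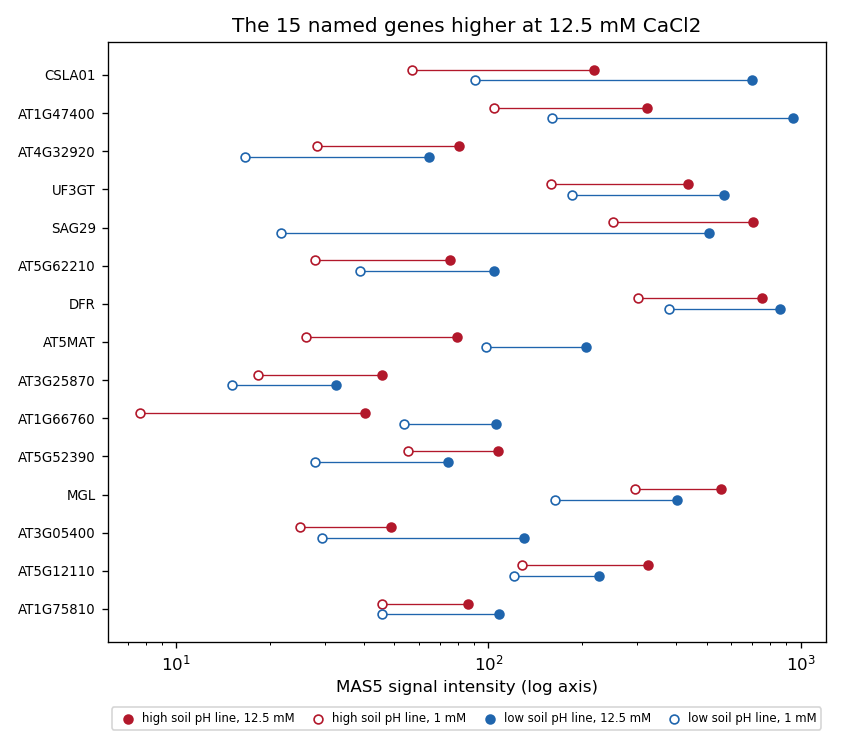
MAS5 signal intensity (log axis) of the 15 named genes that were higher at 12.5 mM CaCl2, with filled points for 12.5 mM and open points for 1 mM, red for the high soil pH line and blue for the low soil pH line. CSLA01, AT1G47400, AT4G32920 and UF3GT passed the threshold, and the others did not. SAG29 had the widest gap, in the low soil pH line.

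Gene lists were looked up next, which together hold 322 loci. Their members were chosen with earlier results of these data known, so the shares given for a list are a description and no independent support. The array's annotation names 66 of them, and 59 passed the filter on dim probe sets. The salicylic acid defence list had 4 tested members of 26, all below 0 in both lines (26.9% of all tested probe sets were), with a median of -1.45 (-1.68 in the high and -0.95 in the low-pH line). WRKY53 was the only one that passed. AT5G03350 had 207 at 12.5 mM and 1154 at 1 mM in the high-pH line, and 775 and 1812 in the low-pH line (log2 -1.84 ± 0.32, limma adjusted p 0.0510). The glutaredoxin GRX480, which is induced by salicylic acid, differed by -1.06 ± 0.28 (limma adjusted p 0.189) and SAG101, a lipase-like defence partner, by -0.16 ± 0.24.

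Of the calcium transport and sensing list 7 of 28 members were tested, 0 passed in limma, and the median was 0.01. The list does not hold CML23, given above. Its member CML37 was too dim to be tested, with changes of -2.30 in the high and -1.15 in the low-pH line. The 5 tested calmodulin-like proteins, CML23 among them, had a median of -0.60. Of these, 3 were below 0 in both lines (26.9% of all tested probe sets were) and 2 had opposite signs (46.7% of all did). In limma 0 passed, and this group was formed by gene symbol after values were seen. The calmodulin-like sensor CML38 had 17.7 at 12.5 mM and 36.0 at 1 mM in the high-pH line, and 14.4 and 71.0 in the low-pH line (log2 -1.53 ± 0.32, limma adjusted p 0.0919). CML42 differed by -0.60 ± 0.31, CML41 by 0.02 ± 0.24 and CML43 by 0.04 ± 0.32. The glutamate receptor-like channel GLR3.3 differed by 0.53 ± 0.24 and the chloroplast calcium sensor CaS by 0.01 ± 0.24. CML42 and CML43 were unequal between the lines, since CML42 was at -0.03 in the high and -1.18 in the low-pH line, and CML43 at 0.66 and -0.58.

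Lists of stress, wall and photosynthesis genes held no member past the threshold. The cold, drought and abscisic acid list (5 tested of 24) had a median of 0.48, with COR15A, a protectant of chloroplast membranes, at 0.50 ± 0.27 and the dehydrin COR47 at -0.49 ± 0.25. The jasmonate and ethylene defence list (3 of 23) had a median of -0.44 and the glucosinolate list (2 of 18) one of -0.21. The cell wall and expansion list (5 of 15) had a median of -0.67, with opposite medians in the lines, 0.38 in the high and -1.44 in the low-pH line. Nuclear photosynthesis genes (5 of 23) had a median of 0.03, and none of the 5 was further from 0 than 0.20. PYK10, the only root marker tested, differed by 0.48 ± 0.24 (limma adjusted p 0.665), and the part of root content in the other results was not tested. The clock gene GI differed by -0.01 ± 0.26. Of the ferritin, phosphate starvation, flower, senescence marker and heat shock lists no member was tested.

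The 69 plastid-encoded genes that were tested had a median of 0.19 and a range of -0.16 to 0.89 in the mean of the wild lines. In both lines 40 of the 69 were above 0, 2 were below 0 in both and 27 had opposite signs, and 0 passed in limma. Of all tested probe sets 26.4% were above 0 in both, 26.9% below 0 in both and 46.7% opposite. Plastid transcripts share a genome and are not independent of each other. The highest was rpoB, a subunit of the plastid RNA polymerase, with 68.9 at 12.5 mM and 39.7 at 1 mM in the high-pH line, and 85.2 and 40.6 in the low-pH line (log2 0.89, limma adjusted p 0.223). The median of these genes was 0.19 in the high and 0.20 in the low-pH line, against -0.61 in the calcicole and -1.38 in the calcifuge of the lab.

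The hypoxia core response list had opposite medians in the wild lines. Of its 26 loci 12 were tested, 0 passed in limma, and 8 had opposite signs (46.7% of all tested probe sets did), with a median of 1.65 in the high and -0.51 in the low-pH line. AT1G19530 had 135 at 12.5 mM and 9.88 at 1 mM in the high-pH line, and 93.8 and 145 in the low-pH line. AT5G10040 had 102 and 14.8 in the high-pH line, and 106 and 114 in the low-pH line. In both genes the high-pH line at 1 mM was the low array. The other 3 wild arrays were between 93.8 and 145 for AT1G19530 and between 102 and 114 for AT5G10040. Both genes were chosen for mention after their values were seen, and not every member had this pattern. AT3G10020 was at -0.81 in the high and -1.08 in the low-pH line, and PDC2 at 0.07 in each. In the lab lines the list had medians of 2.702 in the calcicole and -0.88 in the calcifuge.

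**Figure D4:**
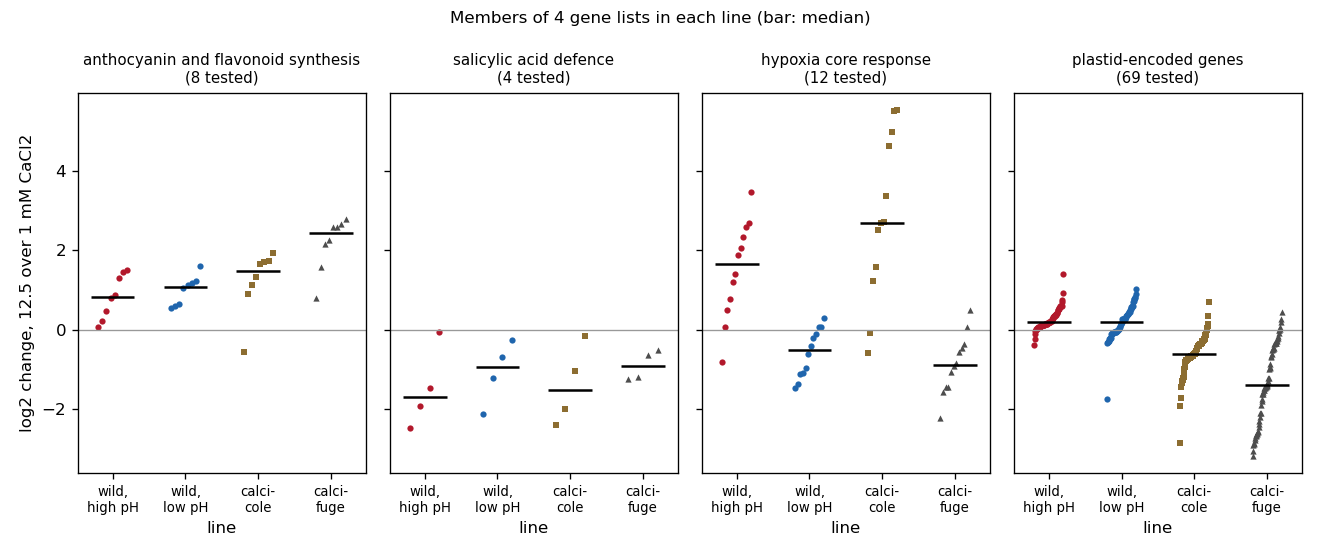
Log2 change (12.5 over 1 mM CaCl2) of each tested member of 4 gene lists in the wild high soil pH line, the wild low soil pH line, the lab calcicole and the lab calcifuge, 1 point per gene, sorted within a line, with the median as a bar. The anthocyanin list was above 0 and the salicylic acid list below 0 in both wild lines. The hypoxia list was high in the wild high soil pH line only among the wild lines, and the plastid-encoded genes had medians of 0.19 and 0.20 in the wild lines, with psbN at 1.40 in the high and -1.73 in the low soil pH line.

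The wild response was then set beside that of the lab lines on the same probe sets, with arrays that the wild fit did not use. In the lab lines 106 probe sets (0.777%) were at least 2-fold higher in both and 89 (0.652%) at least 2-fold lower in both. Of the 151 lower in both wild lines, 16 were at least 2-fold lower in both lab lines, which is 10.6% of the wild set and 18.0% of the lab set. Of the 20 higher in both wild lines, 17 were at least 2-fold higher in the calcicole, where 3.28% of all tested probe sets were, and 11 in the calcifuge, where 3.19% were. In both lab lines together 10 of the 20 were at least 2-fold higher, which is 50% of the wild set and 9.43% of the lab set.

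The probe sets lower in both wild lines were also followed in each lab line on its own. Of the 151, 82 (54.3%) were at least 2-fold lower in the calcicole, where 4.15% of all tested probe sets were, and 36 (23.8%) in the calcifuge, where 3.05% of all were. Of the 81 that fell in the test, the calcicole was below 0 in 76 and the calcifuge in 54, against 51.3% and 44.2% of all tested probe sets. Their median change was -2.003 in the high and -1.76 in the low-pH line, against -1.18 in the calcicole and -0.44 in the calcifuge. Their median signal in the calcicole was 59.9 at 12.5 mM and 146 at 1 mM, and in the calcifuge 111 and 140.

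The named genes differed in how they stood in the lab lines. STZ had log2 changes of -3.56 and -2.39 in the wild high and low-pH lines, against -2.32 in the calcicole and 0.16 in the calcifuge, where its signal was 253 at 12.5 mM and 227 at 1 mM. AT4G29780 had changes of -3.26 and -3.43 in the wild lines, against -2.005 in the calcicole and 0.80 in the calcifuge. WRKY53 was at -1.91 and -2.11 in the wild lines, against -0.16 in the calcicole and -0.62 in the calcifuge. In EXO the calcifuge stood next to the wild low-pH line, with changes of -1.55 and -3.26 in the wild lines against 0.21 in the calcicole and -2.96 in the calcifuge. In 12 of the 15 named lower genes each wild change exceeded both lab changes in size. The genes were chosen for the size of their wild change, which favours this count.

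CSLA01 had log2 changes of 1.89 and 2.92 in the wild lines, against 0.45 in the calcicole and -0.97 in the calcifuge. The lab calcicole had a CSLA01 signal of 26.2 at 12.5 mM and 18.5 at 1 mM, the lab calcifuge one of 35.6 and 72.0. UF3GT, DFR and AT5MAT were higher at 12.5 mM in all 4 lines, with a larger log2 change in each lab line than in either wild line. Both lab lines were above 0 in 13 of the 15 named higher genes, 11 of which had not passed the test, where 30.6% of all tested probe sets were. Of the 9 probe sets that rose in the test, both lab lines were above 0 in 4. Their median change was 1.51 in the high and 1.95 in the low-pH line, against 1.94 in the calcicole and 0.11 in the calcifuge.

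The test of the wild response minus the lab response, an interaction over all 8 arrays, found 0 probe sets past the threshold in limma. An unadjusted p under 0.05 was found for 687, and the smallest adjusted p was 0.988. For CSLA01 the difference was 2.66 ± 0.57, for AT4G29780 -2.74 ± 0.83 and for WRKY53 -1.62 ± 0.32, each with an adjusted p of 0.988. The genes were chosen for their size in the wild lines, which favours such gaps, so none is shown to respond differently in wild and lab plants.

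**Figure D5:**
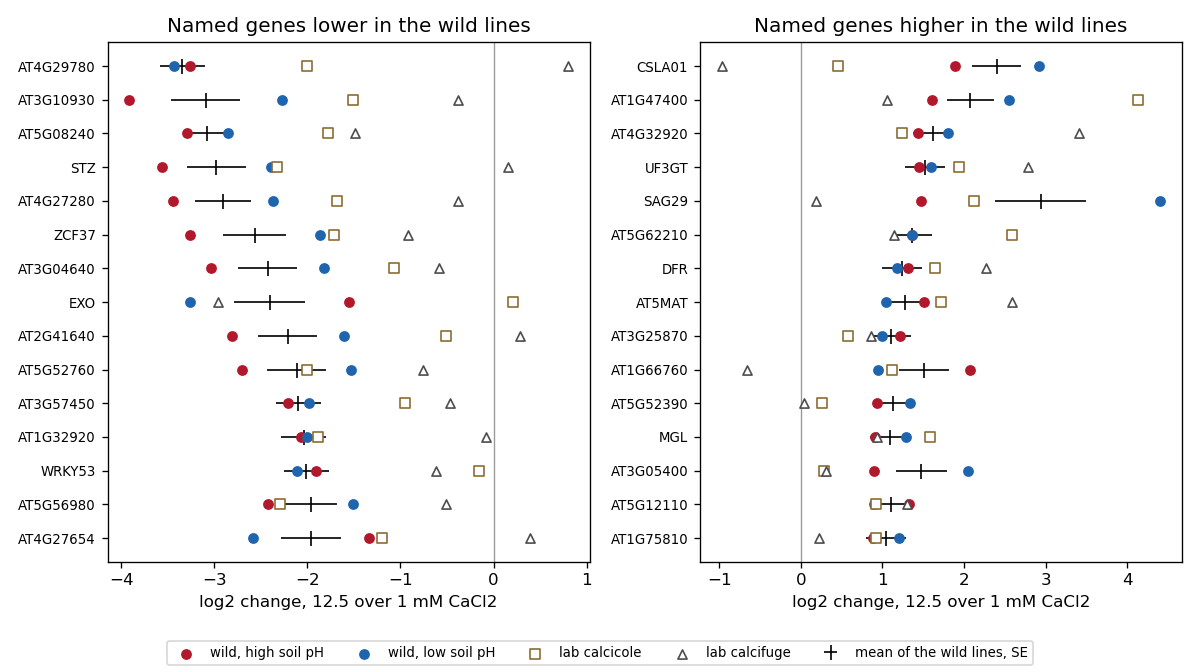
Log2 change (12.5 over 1 mM CaCl2) of the 15 named lower genes (left panel) and the 15 named higher genes (right panel) in each of the 4 lines, with the mean of the wild lines and its limma SE as a cross with a horizontal bar. Among the lower genes the wild points lie furthest from 0 in 12 of 15, which their choice by the size of the wild change favours. Among the higher genes the lab points lie on either side of the wild points.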

How the data were processed

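The deposited values are 1 signal intensity for each probe set, which the authors computed with MAS5 per the submitters' processing notes; its version and settings are not given in the sources used here. Values are linear and share one trimmed mean across the 8 arrays. Of 22810 probe sets, 64 controls and the 40% with the lowest mean log2 value over the 8 arrays were left out, which left 13647. Before log2, 2.507 (the 10th percentile of all signals) was added as a pseudocount. Of the tested probe sets 7289 are paired with 1 gene, 276 with several and 6082 are unnamed here, including 49 of the 90 past the threshold. Names come from the platform table and TAIR10.1.

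The wild response is the dose effect in limma 3.58.1 (R 4.3.3) on the 4 wild arrays with line as a block, with 1 residual and 7.50 prior degrees of freedom, and Benjamini-Hochberg adjustment over all 13647. The wild minus lab test is an interaction on 8 arrays. The threshold is an adjusted p under 0.05, and errors are standard errors (SE). Changes per line are single values without error, and the number of arrays limits the precision.

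The named genes are the 15 each way with the largest change past the threshold, of 1 gene and with the same sign in both lines. Where fewer passed, places went to genes ranked by the smaller of both lines' changes, with a signal of at least 20 on both 12.5 mM arrays. Members and lists were chosen with earlier results of these data known. Alternatives covered the scaling, pseudocount, filter, variance model, threshold, line block, shared probe sets and leaving out each line. The fits were tested on simulated data with 200 changed probe sets, drawn with the spread that the wild fit had itself estimated. Such data cannot check that spread. Figures were drawn with matplotlib 3.10.9.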

Additional observations from a re-analysis of the deposited data

Results flagged for a closer look

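4 members of the gene lists were at least 2-fold higher at 12.5 mM in the high-pH line and at least 2-fold lower in the low-pH line. The lists had 59 tested loci besides the 69 plastid-encoded genes, and of all 13647 tested probe sets 20 changed this way. List members were chosen with earlier results of these data known. Members with smaller opposite changes are not given here. The differences of the 4 between the lines were not tested, since each line has 1 array per dose. AT3G10040, annotated as HRA1, a transcription factor that attenuates the hypoxia response, was at 1.198 in the high and -1.45 in the low-pH line, a gap of 2.65 on the log2 scale. AT4G39675 was at 2.68 and -1.36, a gap of 4.04. Its signal in the high-pH line at 1 mM was 2.22, under the pseudocount of 2.507. AT1G33055 was at 1.90 and -1.10, a gap of 3.00. All 3 belong to the hypoxia list. The plastid gene psbN, of photosystem II, was at 1.40 and -1.73, a gap of 3.13, with 50.7 at 12.5 mM and 17.7 at 1 mM in the high-pH line, and 36.3 and 126 in the low-pH line.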

How the results depend on the processing

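The count of 90 probe sets past the limma threshold depended on the settings. It was 0 with each array centred on its median (1037 at an unadjusted p under 0.05), 0 with quantile normalization (990), 0 with no filter (1500), 0 with no line term (736) and 0 when all 8 arrays set the spread (975). Without the wild low soil pH line 0 passed in the 8-array fit (597 unadjusted), and without the wild high soil pH line 0 passed (1057). The lone wild line is then assumed to vary like the lab lines. With an intensity trend in the variance 194 passed (35 higher, 159 lower), of which 79 were among the 90, and at an adjusted p under 0.1 178 passed. With a pseudocount of 16 the count was 115, with the filter taken on the wild arrays 132 and without probe sets of several genes 87. Leaving out either lab line gave 90, by construction, as 1 lab line adds no residual degree of freedom. The prior degrees of freedom ranged over these settings from 3.01 to 11.55, and the cause was not tested. All 30 named genes kept their direction wherever they were tested, and the 19 past the threshold lost it under each setting that gave 0, and 1 of them with the intensity trend.

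The count of probe sets at least 2-fold changed the same way in both wild lines, 171 with 88.3% lower, was 150 (84% lower) with median centring, 156 (85.9%) with quantile normalization and 122 (88.5%) with a pseudocount of 16, but 522 (68% lower) with no filter, which adds dim probe sets. Of the wild minus lab differences 0 passed in limma under each setting, save 1 without the wild low soil pH line. By replicate number no paired analysis was possible because every array has the same number. The fit itself pairs the doses by line. Dim probe sets limit the size of changes: 11 of the 81 that fell were under a signal of 10 at 12.5 mM.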

Other observations

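Several genes moved at least 2-fold in opposite directions in the wild lines; all were chosen after their values were seen, and the gaps were not tested. GH3.3, an enzyme that conjugates auxin with amino acids, had 58.4 at 12.5 mM and 20.3 at 1 mM in the high-pH line, and 23.8 and 78.3 in the low-pH line. The cytochrome P450 gene CYP71B22 had 31.5 and 5.96 in the high-pH line, and 17.5 and 42.5 in the low-pH line, whereas its family member CYP71B23 fell in both. AT1G30700 ran the other way, with 1.69 and 28.3 in the high-pH line and 32.9 and 2.94 in the low-pH line, where 1.69 is under the pseudocount of 2.507.

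Families grouped by gene symbol, also after values were seen, held few shared changes. Of 5 tested WRKY transcription factors only WRKY53 fell, and WRKY22 was at -0.56 with an adjusted p of 0.568. Of 7 plant U-box ubiquitin ligases, enzymes that mark proteins for breakdown, 4 were below 0 in both lines. Of all tested probe sets 26.9% were, and 0 of the 7 passed in limma. The lowest, PUB23, had changes of -1.09 in the high and -0.92 in the low-pH line (adjusted p 0.152). Of 20 tested UGT glycosyltransferases 6 were above 0 in both lines, 3 below 0 in both and 11 had opposite signs. Over all tested probe sets these shares were 26.4%, 26.9% and 46.7%. Of the 20 genes 0 passed in limma. The expansins, 7 tested, had a median of 0.07, and the tau glutathione S-transferases, 7 tested, of -0.10.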
